A study of Mus musculus with 3 samples.

Results

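Tumour neutrophils were taken from CD45+ cells of B16F10 melanomas as barcodes with a strong calgranulin signal and a neutrophil receptor signal. A barcode was kept with at least 1000 UMIs (unique molecular identifiers, which tag single RNA molecules as they are captured), under 10% mitochondrial UMIs, and a barcode sequence found in 1 library only. The members were then chosen by measured values: at least 20 UMIs of S100a8 and S100a9 together and at least 2 UMIs of Csf3r, G0s2 and Cxcr2 together, with Fn1, Adgre1, C1qa and Cd3e at 0. This gave 244 neutrophils of 10243 deposited barcodes, of which 7842 passed the filters on depth, mitochondrial share and barcode. There were 76 neutrophils at day 3, 60 at day 7 and 108 at day 14.

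The 3 libraries came from C57BL/6 mice that carried the melanoma line B16F10 under the skin. Every mouse had also received activated Pmel-1 cytotoxic T lymphocytes, which see the melanocyte protein gp100, by vein on day 9 after the tumour cells were given. Days 3, 7 and 14 count from this transfer to the harvest of the tumours. Each day is 1 library that pools equal numbers of cells from 3 mice; mice without the transfer were not analysed here. With 1 library per day there is no replicate check and no test, and day after transfer, age of the tumour and library cannot be told apart. All intervals are 95% intervals that cover counting error only.

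Neutrophils are short-lived granulocytes made in the bone marrow and drawn into tissue by ligands of the receptor CXCR2. S100a8 and S100a9 encode the subunits of calprotectin, a protein abundant in their cytoplasm. They transcribe the genes of their granule proteins while they develop and stop doing so as they mature, so that RNA of secondary granule proteins marks young cells. Inside tumours, neutrophils can carry programmes of hypoxia, glycolysis and interferon response that differ from those in blood.

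The gate chose the calgranulins, the receptors and the genes set to 0, so their values are a description. S100a8 was at 19344, 22527 and 36124 CPM (the UMIs of a gene per 1000000 UMIs of all neutrophils of a library) at days 3, 7 and 14, and S100a9 at 35111, 30500 and 59035 CPM. Csf3r, the receptor of the granulocyte growth factor G-CSF, was at 1102, 1381 and 1411 CPM, and Cxcr2 at 429, 415 and 423 CPM. G0s2, an inhibitor of fat breakdown that is abundant in neutrophils, had 5723, 7662 and 7366 CPM, against 28.3, 32.7 and 17.9 CPM in monocytes and macrophages. S100a8 and S100a9 lie on chromosome 3 of build GRCm38, at chr3:90668978-90670035 on the plus strand and chr3:90692632-90695721 on the minus strand.

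Markers of other cell types were low in the gated cells. The 8 eosinophil markers summed to 1, 0 and 1 UMIs at days 3, 7 and 14, and the mast cell, basophil and erythroid markers were at 0. The 10 T cell markers summed to 56.5, 64.8 and 96.0 CPM in neutrophils, against 10115, 14049 and 11847 CPM in T cells. The 13 monocyte and macrophage markers summed to 486, 104 and 263 CPM in neutrophils, against 5326, 5564 and 6335 CPM in monocytes and macrophages, and 7, 6 and 7 of the 13 had a UMI. Part of this contrast was fixed by the rules, since the 13 include genes the gate set to 0. They also include Csf1r and Adgre1, by which monocytes and macrophages were chosen. Adgre1, Fn1 and C1qa, set to 0 by the gate, and C1qb and Mrc1, which the gate did not use, had no UMI in any neutrophil. At day 3, 39 of the 51 UMIs of Apoe in neutrophils lay in 1 cell. S100a8 had a UMI in 7.26%, 7.27% and 13.1% of monocytes and macrophages and in 1.35%, 1.26% and 2.53% of T cells; the part of free RNA in these shares was not tested.

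Neutrophils held little RNA. The median was 2122, 2407.5 and 2282 UMIs and 743, 794 and 829.5 genes per cell at days 3, 7 and 14, against 10518, 10644 and 12100.5 UMIs per cell in monocytes and macrophages, 3628 cells with a UMI of Csf1r or Adgre1 and none of Cd3e that lay outside the neutrophil gate. Of the gated neutrophils, 32 (9, 5 and 18 at days 3, 7 and 14) had a Csf1r UMI and so met both rules, and they were kept as neutrophils only. All neutrophils of a library summed to 177008, 154261 and 281310 UMIs. Ribosomal protein genes took 3.63%, 2.74% and 3.37% of them, against 13.7%, 15.2% and 17.1% in monocytes and macrophages. No doublet caller was run. In 29 neutrophils there were at least 2 UMIs of markers of T, NK, B, dendritic, melanoma or erythroid cells. Monocyte and macrophage markers were not part of this count. The rule on shared barcodes removed 585 barcodes from the libraries and no neutrophil.

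Barcodes lay close to the edge of the gate on both sides. Of 317 filtered barcodes with 20 or more calgranulin UMIs, 73 missed the gate, 31 of them for too few receptor UMIs and 23 for a UMI of Adgre1. Just inside the calgranulin threshold, 14 neutrophils had 20 to 29 UMIs, and just outside it 30 barcodes with the same receptor signal had 10 to 19. Below 20 there were 76, 32 and 41 such barcodes at days 3, 7 and 14, 149 in all. Many were far from the threshold: 40, 18 and 17 (75 in all) had no calgranulin UMI. Of the 149, 46, 19 and 22 (87 in all) also lay under an upper limit on UMIs per cell. This shallower part carried Csf3r at 1024, 994 and 781 CPM and Cxcl2 at 33893, 32693 and 68036 CPM. Its S100a8 was at 1406, 763 and 1297 CPM. The deeper barcodes are not in these values. Counts by day therefore refer to calgranulin-rich cells.

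Neutrophils made up 2.90% (2.29 to 3.62, exact Clopper-Pearson interval) of filtered barcodes at day 3, 2.46% (1.88 to 3.15) at day 7 and 3.88% (3.20 to 4.67) at day 14. The share at day 14 was 1.58-fold (1.14 to 2.20) that at day 7. Day 7 over day 3 gave 0.848-fold (0.594 to 1.21), and day 14 over day 3 gave 1.34-fold (0.990 to 1.82), so that day 3 was not separated from either later day by counting error. Per 100 monocytes and macrophages there were 5.63, 6.23 and 8.21 neutrophils. The cells outside the gate by calgranulin alone were most numerous at day 3, and their part in this order was not tested.

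For the RNA of neutrophils the days were compared gene by gene on these summed counts. Genes with 20 or more UMIs in the compared libraries together count as measured, and a gene is called higher or lower where the ratio was at least 1.5-fold and its interval excluded 1; this is a rule of size. From day 3 to day 7 the rule took 12.7% of 1828 measured genes as higher and 12.9% as lower. From day 7 to day 14 it took 13.3% of 2228 as higher and 14.1% as lower, and from day 3 to day 14 7.18% of 2354 as higher and 11.2% as lower. The medians of all measured genes were -0.06, 0.04 and -0.02 on the log2 scale. These shares are the background for the gene groups that follow.

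**Figure D1:**
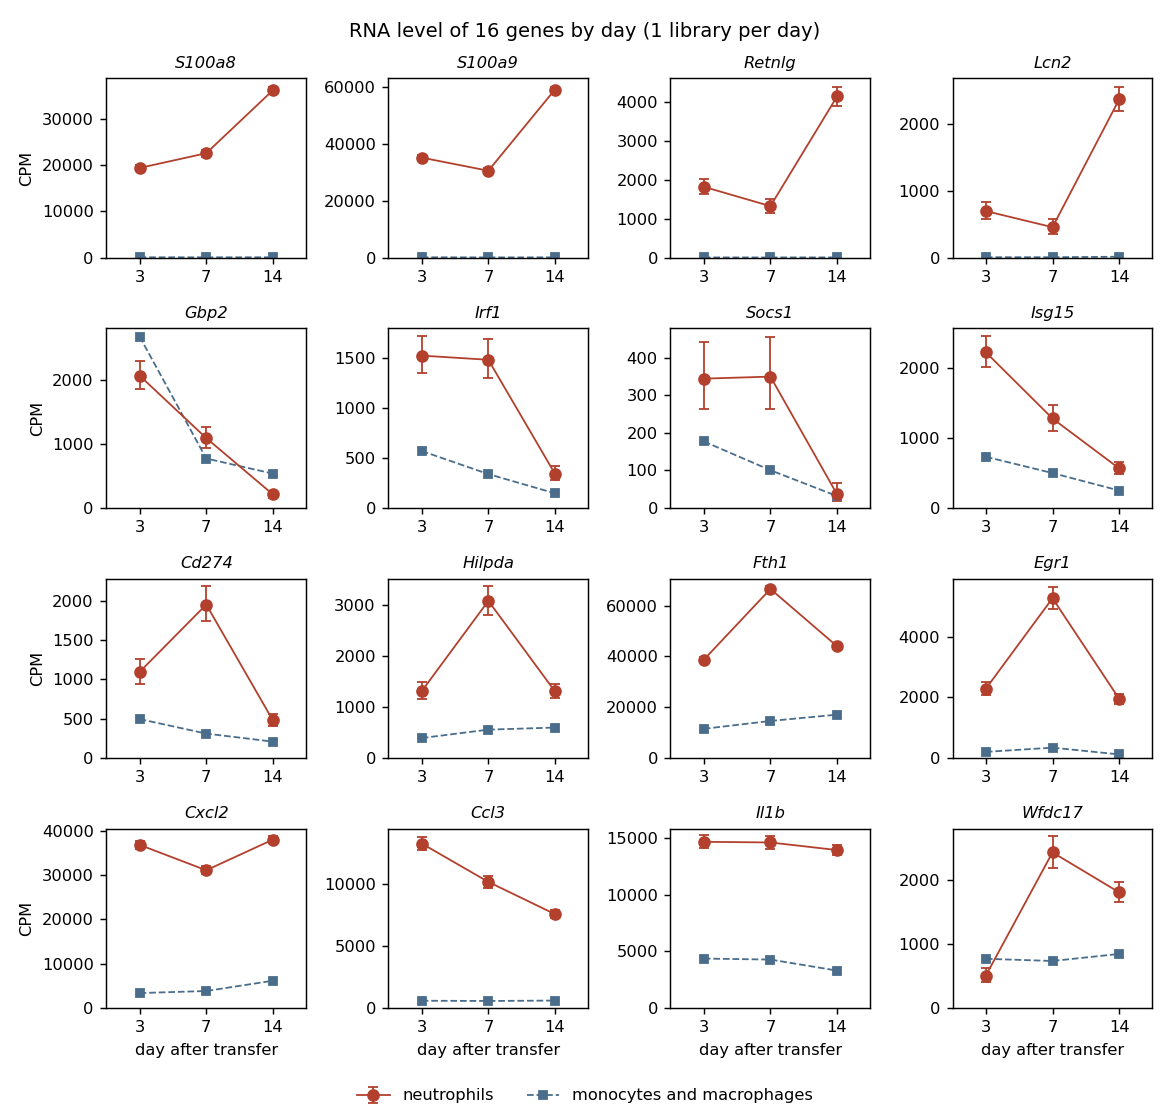
RNA level (y axis, CPM) of 16 genes against day after transfer (x axis), with neutrophils as circles with 95% Poisson intervals and monocytes and macrophages as squares on dashed lines. Retnlg, Lcn2 and the calgranulins were highest at day 14, Gbp2, Irf1, Socs1 and Isg15 lowest at day 14, and Cd274, Hilpda, Fth1 and Egr1 highest at day 7 in neutrophils.

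Many genes of mature circulating neutrophils were higher at day 14. Of 17 measured members of that list, 10 were higher and 1 lower at day 14 than at day 7, with a median log2 ratio of 1.05, and 8 of 18 were higher and 0 lower than at day 3, with a median of 0.97. Retnlg, a resistin-like secreted protein of neutrophils, was at 1819, 1322 and 4141 CPM at days 3, 7 and 14. It was 3.13-fold (2.70 to 3.65) higher at day 14 than at day 7, and its UMIs lay in 33, 36 and 80 neutrophils. Hp, the haptoglobin gene, was at 548, 363 and 1234 CPM, 3.40-fold (2.56 to 4.59) higher at day 14 than at day 7. Wfdc21, a whey acidic protein of the same chromosome 11 cluster as Wfdc17, was at 243, 324 and 814 CPM. Anxa1, whose product annexin A1 restrains neutrophil recruitment, was at 124, 90.8 and 398 CPM. These 4 genes were lower at both earlier days than at day 14, with intervals that did not overlap.

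Other members of the list had their low point at day 7. Mmp9, the gelatinase of tertiary granules, was at 955, 363 and 750 CPM at days 3, 7 and 14, 2.63-fold (1.93 to 3.62) lower at day 7 than at day 3 and 2.07-fold (1.53 to 2.83) higher at day 14 than at day 7. From day 3 to day 7, 2 of 15 measured members were higher and 5 lower. Stfa2l1, a cysteine protease inhibitor, ran the other way, with 740, 933 and 523 CPM.

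RNA of secondary granule proteins was found mostly at day 14, and there mostly in 3 cells. Camp, the cathelicidin gene, had 0, 0 and 1012 UMIs at days 3, 7 and 14. A floor of 3 counts in the library stands for a count of 0, which is 16.9 CPM at day 3 and 19.4 CPM at day 7. Against this floor, its 3598 CPM at day 14 were 185-fold higher than at day 7, with a lower interval limit of 7.23 on the log2 scale. Ngp, a granule protein of the same family, had 0, 0 and 834 UMIs, 152-fold higher against the floor, with a lower limit of 6.95. Ltf, which encodes lactoferrin, had 4, 1 and 191 UMIs. The 3 cells held 4966, 15105 and 4290 UMIs, and the deepest of them had 778 UMIs of Camp, 644 of Ngp, 127 of Ltf, 110 of Chil3, 8 of the primary granule gene Prtn3 and 2 of Elane. The same cells held 9, 1 and 12 UMIs of Cxcl2 and 1, 0 and 5 of Il1b, both abundant in the rest of the gate. None of 18 cell cycle genes reached the UMI minimum in neutrophils in any comparison of days.

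Lcn2, an iron-scavenging granule protein, was the member of that list found in many cells, 28, 26 and 58 neutrophils at days 3, 7 and 14. It was at 695, 454 and 2364 CPM, 5.21-fold (4.07 to 6.76) higher at day 14 than at day 7. Leaving out the 3 granule-rich cells gave a log2 ratio between day 14 and day 7 of 1.40, against 2.38 with them. For S100a8 the same ratio was 0.34 without them and 0.68 with them, below and above the 1.5-fold size, and for Ifitm6 it was 0.44 and 1.59. For the mature circulating list, 8 of 15 measured members were higher and 1 lower at day 14 than at day 7 without these cells, with a median of 0.80, and 7 higher and 2 lower at day 14 than at day 3, with a median of 0.48. Retnlg and Hp passed the rule both with and without them.

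Chemotactic receptors passed the rule in both directions at day 14 over day 7, and only as lower in the other comparisons. Of 9 measured, 2 were higher and 2 lower at day 14 than at day 7, 0 higher and 2 lower at day 7 than at day 3, and 0 higher and 2 lower at day 14 than at day 3. C5ar1, the receptor of complement fragment C5a, was at 853, 415 and 775 CPM at days 3, 7 and 14, and Fpr1, a receptor of formylated bacterial peptides, at 141, 38.9 and 117 CPM. Both were lowest at day 7. Hcar2, a receptor of hydroxybutyrate and niacin, was at 2887, 3922 and 1777 CPM, and Ptafr, the receptor of platelet-activating factor, at 876, 1076 and 469 CPM. Both were lowest at day 14, by 2.21-fold (1.96 to 2.49) and 2.29-fold (1.81 to 2.90) against day 7. Ccr1 (1384, 1504 and 1482 CPM), Cxcr4 (390, 389 and 419 CPM) and Cxcr2 passed the rule in no pair of days.

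Those receptors of innate recognition that passed the rule against day 3 were all lower, beside 12.9% of all genes lower at day 7 and 11.2% at day 14. Of 14 measured pattern and Fc receptors, 0 were higher and 4 lower at day 7 than at day 3, 2 higher and 0 lower at day 14 than at day 7, and 0 higher and 3 lower at day 14 than at day 3. Clec4n, which encodes the fungal receptor dectin-2, was at 1158, 434 and 348 CPM at days 3, 7 and 14, and Fcgr4, an activating receptor of IgG, at 458, 156 and 160 CPM. Both were highest at day 3. Cd14, a co-receptor of endotoxin, was at 2141, 1517 and 2599 CPM. Among adhesion molecules, Selplg, the ligand of P-selectin, was at 350, 194 and 366 CPM and Itgb2, the shared beta chain of the leukocyte integrins, at 192, 117 and 267 CPM, both lowest at day 7. In the adhesion list as a whole 0 of 11 measured members were higher and 4 lower at day 7 than at day 3. Receptors of growth factors and cytokines hardly moved by this rule: 1 of 9, 0 of 11 and 1 of 10 measured members were higher and none was lower in the 3 comparisons (day 7 over 3, 14 over 7 and 14 over 3). The member higher at day 14 than at day 3 was Ifngr1, the ligand-binding chain of the interferon-gamma receptor, with 79.1, 123 and 185 CPM.

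A few genes led the chemokine output. Cxcl2, a ligand of CXCR2, reached 36925, 31161 and 38122 CPM at days 3, 7 and 14, against 3312, 3777 and 6107 CPM in monocytes and macrophages. Cxcl3 was at 2486, 2256 and 2453 CPM, and neither passed the rule between days. Cxcl1, another CXCR2 ligand, had no UMI in any neutrophil. Ccl3 and Ccl4, chemokines that draw T cells and monocytes, were at 13327, 10210 and 7593 CPM and at 13152, 8849 and 7718 CPM. They were 1.76-fold (1.65 to 1.86) and 1.70-fold (1.61 to 1.81) lower at day 14 than at day 3. Over the list, 1 of 7 measured chemokines was higher and 1 lower at day 7 than at day 3, 1 higher and 2 lower of 7 at day 14 than at day 7, and 1 higher and 4 lower of 8 at day 14 than at day 3. The higher gene at day 14 was Ccl2, with 11, 6 and 108 UMIs, of which 98 at day 14 lay in 1 cell, and it ran the other way (-0.90) when cells with under 5% mitochondrial UMIs alone were taken. Ccl6 was at 1972, 3306 and 2154 CPM. Cxcl10, an interferon-induced ligand of CXCR3 on T cells, was at 927, 1147 and 235 CPM in neutrophils, 4.89-fold (3.67 to 6.59) lower at day 14 than at day 7. At day 7, 94 of its 177 UMIs lay in 1 cell.

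Several inflammatory cytokines were lower at day 14, and Il1b and Osm were not. Il1b, which encodes interleukin-1 beta, was at 14683, 14625 and 13953 CPM at days 3, 7 and 14, and no pair of days passed the rule. Tnf was at 780, 363 and 128 CPM, 6.09-fold (4.20 to 9.05) lower at day 14 than at day 3, and Il1a at 723, 376 and 242 CPM, 2.99-fold (2.21 to 4.08) lower. Il1rn, the natural antagonist of the interleukin-1 receptor, was at 1830, 2003 and 903 CPM, and Acod1, the enzyme that makes itaconate, at 5768, 3475 and 2542 CPM. Osm, which encodes oncostatin M, was at 1362, 1912 and 1493 CPM and passed the rule in no pair of days. Il23a, a subunit of interleukin-23, had 53, 6 and 30 UMIs, lowest at day 7. In the list of interleukin-1, TNF and NF-kB genes, 1 of 16 measured members was higher and 6 lower at day 7 than at day 3, 1 higher and 6 lower at day 14 than at day 7, and 0 higher and 9 lower at day 14 than at day 3. In monocytes and macrophages the last comparison gave 2 higher and 7 lower of 19, beside 9.2% higher and 7.62% lower of all 11538 measured genes.

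The interferon-gamma response was low at day 14. In that list, which includes the MHC class I pathway, 0 of 14 measured members were higher and 12 lower at day 14 than at day 7, with a median log2 ratio of -1.92, and 0 higher and 14 lower of 14 at day 14 than at day 3, with a median of -2.18. At day 7 against day 3, the median of 15 measured members was -0.55, with 0 higher and 5 lower. Gbp2, a guanylate-binding GTPase that attacks intracellular pathogens, was at 2068, 1089 and 206 CPM at days 3, 7 and 14, 10.0-fold (7.59 to 13.5) lower at day 14 than at day 3. Irgm1, an immunity-related GTPase, was at 480, 279 and 21.3 CPM, 22.5-fold (9.93 to 63.1) lower, and Igtp, of the same family, at 441, 227 and 39.1 CPM, 11.3-fold (5.96 to 23.5) lower. Gbp2 was found in 51 of 76, 25 of 60 and 22 of 108 neutrophils and Irgm1 in 41, 22 and 5.

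Some members were level to day 7 and low only at day 14. Irf1, the transcription factor at the head of the response, was at 1520, 1478 and 338 CPM at days 3, 7 and 14, 4.38-fold (3.43 to 5.62) lower at day 14 than at day 7. Socs1, the feedback inhibitor of the interferon receptor kinases, was at 345, 350 and 35.5 CPM, 9.85-fold (4.96 to 21.7) lower, and B2m, the light chain of MHC class I, at 1717, 1893 and 850 CPM, 2.23-fold (1.87 to 2.65) lower. None of the 3 passed the rule between days 3 and 7. H2-D1 (2254, 1420 and 1415 CPM) and H2-K1 (1503, 1037 and 789 CPM), which encode heavy chains of MHC class I, passed it for day 14 over day 3 and not for day 14 over day 7. Outside the list, Ifi47, another interferon-inducible GTPase, was at 593, 421 and 32.0 CPM, and Psme2, a proteasome activator, at 441, 175 and 85.3 CPM. Without the 3 granule-rich cells, 11 of 14 list members were lower at day 14 than at day 7 and 14 of 14 lower than at day 3.

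Monocytes and macrophages of the same libraries were low at day 14 in this list too. There 0 of 19 measured members were higher and 17 lower at day 14 than at day 3, with a median of -1.77, and 0 higher and 11 lower at day 14 than at day 7, with a median of -0.62, beside 7.74% higher and 5.83% lower of all 11322 measured genes. At day 7 against day 3 the median was -0.76 in monocytes and macrophages and 11 of 19 were lower, beside 5.36% of 11073 genes, while Irf1 was at 566, 335 and 143 CPM and Socs1 at 177, 99.9 and 30.8 CPM over the 3 days. Whether the time course differs between the cell types was not tested.

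The promoters of 5 interferon-response genes are shown because these members had the values above and because their known response elements lie close to the start of transcription. Each is the 120 bases before the RefSeq start, build GRCm38.p6, read 5′ to 3′ on the strand of the gene, and capitals mark matches to the interferon-gamma-activated element GAS (TTCNNNGAA) or the interferon-stimulated element ISRE (GAAA, any 2 bases, GAAA), on either strand. Gbp7, which was at 379, 259 and 60.4 CPM, is at chr3:142530216-142530335 on the plus strand. Igtp is at chr11:58199436-58199555 and Irf1 at chr11:53769894-53770013, both plus. Socs1 is at chr16:10785537-10785656 and Isg15, from the type I list, at chr4:156200819-156200938, both minus. None of the 5 windows overlaps an annotated gene.
Gbp7: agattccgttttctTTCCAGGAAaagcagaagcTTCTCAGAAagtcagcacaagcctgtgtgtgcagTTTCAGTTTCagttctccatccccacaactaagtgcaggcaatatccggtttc
Igtp: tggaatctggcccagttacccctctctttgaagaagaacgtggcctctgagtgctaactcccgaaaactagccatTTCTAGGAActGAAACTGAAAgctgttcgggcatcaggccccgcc
Irf1: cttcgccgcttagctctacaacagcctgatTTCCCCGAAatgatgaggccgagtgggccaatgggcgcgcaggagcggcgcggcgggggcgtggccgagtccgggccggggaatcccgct
Socs1: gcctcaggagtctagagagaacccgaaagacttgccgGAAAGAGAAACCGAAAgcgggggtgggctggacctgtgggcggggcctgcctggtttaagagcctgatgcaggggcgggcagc
Isg15: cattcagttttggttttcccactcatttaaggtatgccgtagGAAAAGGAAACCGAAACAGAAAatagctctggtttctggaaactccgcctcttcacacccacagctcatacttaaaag

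The Gbp7 window holds 2 GAS matches and 1 ISRE match, of which the last reads from the opposite strand, the Igtp window 1 of each, the Irf1 window 1 GAS, the Socs1 window 2 overlapping ISRE matches and the Isg15 window 3 overlapping ISRE matches. Over the whole RefSeq table, 4.31% of 32851 promoter windows of this length hold either motif, 3.15% GAS and 1.22% ISRE. Of 15 members of the interferon-gamma list with a listed promoter, 10 hold either motif (66.7%), and of the 11 among them that were lower at day 14 than at day 7, 8 do (72.7%). The shares were 6 of 18 (33.3%) in the type I interferon list and 0 of 19 in the glycolysis and hypoxia list. A match is a description of letters and does not show that a factor binds there.

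Type I interferon genes were lower at day 14 as well. Of 17 measured members, 0 were higher and 11 lower at day 14 than at day 7, with a median of -0.97, and 0 of 18 higher and 13 lower at day 14 than at day 3, with a median of -0.93. Isg15, a ubiquitin-like modifier, was at 2226, 1277 and 562 CPM at days 3, 7 and 14, 3.96-fold (3.29 to 4.80) lower at day 14 than at day 3. Rsad2, which encodes the antiviral enzyme viperin, was at 836, 1167 and 533 CPM, and Slfn4, a schlafen gene of myeloid cells, at 966, 933 and 558 CPM. At day 7 against day 3, 2 of 17 were higher and 4 lower, and their median of -0.05 turned to 0.12 under another scaling (TMM). Ifit3, 1 of the 2 higher genes, rested on 1 cell: its log2 ratio was 0.90 with the cell of most UMIs in each library and -0.15 without it. Monocytes and macrophages had medians of -0.97 and -1.06 for day 14 over day 7 and over day 3.

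**Figure D2:**
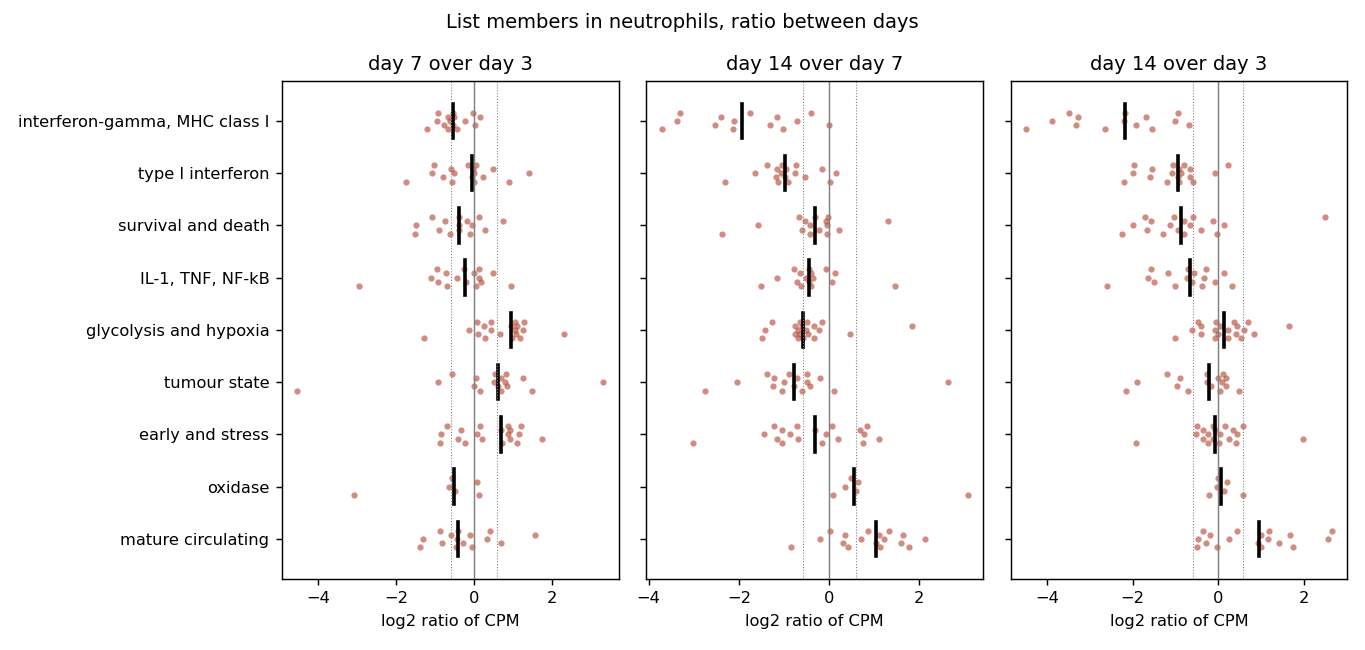
Log2 ratio of CPM between days in neutrophils (x axis) for the measured members of 9 gene lists (rows), with 1 point per gene, a black bar at the list median and dotted lines at 1.5-fold; a member at 0 in 1 library stands at the floor of 3 counts. The interferon-gamma medians are -1.92 and -2.18 for day 14 over days 7 and 3, those of the mature circulating list 1.05 and 0.97, and the glycolysis and hypoxia median is 0.93 for day 7 over day 3 and -0.59 for day 14 over day 7.

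Many glycolysis and hypoxia genes were highest at day 7. Of 19 measured members, 11 were higher and 1 lower at day 7 than at day 3, with a median of 0.93 (0.57 with each cell weighing alike), and 1 higher and 7 lower of 20 at day 14 than at day 7, with a median of -0.59. At day 14 against day 3, 4 of 20 were higher and 2 lower. Hk2, the hexokinase that starts glycolysis, was at 322, 771 and 320 CPM at days 3, 7 and 14, 2.40-fold (1.73 to 3.35) higher at day 7 than at day 3. Slc2a1, which encodes the glucose transporter GLUT1, was at 345, 713 and 444 CPM and Ldha, a subunit of lactate dehydrogenase, at 717, 1368 and 963 CPM. Egln3, an oxygen sensor induced by hypoxia, was at 328, 700 and 249 CPM and Hif1a, the hypoxia-inducible factor itself, at 232, 519 and 412 CPM. The exception was Slc2a3, the glucose transporter GLUT3, with 271, 110 and 391 CPM, lowest at day 7. Gapdh (2994, 2742 and 2172 CPM) and Pkm (1650, 1757 and 1088 CPM) were not higher at day 7. In monocytes and macrophages, 1 of 22 members was higher and 2 lower at day 7 than at day 3, with a median of -0.01, beside 4.86% higher and 5.36% lower of all genes; the difference between the cell types was not tested.

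Genes reported for tumour neutrophils in other settings, here called the tumour-state list, were in many cases highest at day 7. Of 17 measured members, 9 were higher and 2 lower at day 7 than at day 3, with a median of 0.61 (0.32 with 4 or more receptor UMIs per cell), and 1 higher and 11 lower at day 14 than at day 7, with a median of -0.77. At day 14 against day 3, 0 of 16 were higher and 6 lower. Hilpda, a lipid droplet protein induced by hypoxia, was at 1305, 3079 and 1301 CPM at days 3, 7 and 14, 2.36-fold (2.01 to 2.77) higher at day 7 than at day 3. Fth1 and Ftl1, the ferritin chains that store iron, were at 38614, 66556 and 43952 CPM and at 13508, 20653 and 11191 CPM. Xbp1, a factor of the unfolded protein response, was at 311, 862 and 434 CPM. All 4 were highest at day 7. Icam1, an adhesion ligand in the same list, was at 333, 175 and 74.7 CPM, lower at each step. Siglecf, a lectin reported on neutrophils of lung tumours in mice, had 3, 0 and 2 UMIs.

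Cd274, which encodes the checkpoint ligand PD-L1, had its peak at day 7 and its low at day 14. Its level was 1096, 1958 and 476 CPM at days 3, 7 and 14, against 493, 307 and 205 CPM in monocytes and macrophages. In neutrophils its level was 1.79-fold (1.49 to 2.15) higher at day 7 than at day 3 and 4.11-fold (3.34 to 5.08) lower at day 14 than at day 7. Thinned to 1000 UMIs per cell, 55.5%, 63.3% and 20.7% of neutrophils had a UMI of Cd274, against 35.6%, 22.9% and 17.3% of monocytes and macrophages. Unthinned, the share in neutrophils was 72.4%, 73.3% and 27.8%. Among other genes linked to suppression of T cells, Wfdc17, a secreted whey acidic protein, was at 503, 2431 and 1806 CPM, 4.83-fold (3.83 to 6.16) higher at day 7 than at day 3, and Arg2 at 294, 447 and 284 CPM. Arg1, the arginase of suppressive macrophages, had 5, 1 and 2 UMIs in neutrophils. That list had 3 of 7 measured members higher and 0 lower at day 7 than at day 3, 0 higher and 3 lower of 8 at day 14 than at day 7, and 1 higher and 1 lower of 9 at day 14 than at day 3.

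Growth and vessel factors had calls in both directions. In the matrix and angiogenic list 1 of 10 measured members was higher and 3 lower at day 7 than at day 3, 3 higher and 1 lower at day 14 than at day 7, and 1 higher and 1 lower at day 14 than at day 3. Prok2, which encodes the angiogenic and neutrophil-mobilising factor Bv8, had 12, 31 and 121 UMIs at days 3, 7 and 14, in 4, 2 and 6 cells. Vegfa was at 192, 272 and 160 CPM.

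Several immediate early genes were highest at day 7. In the list of early and stress genes, 9 of 19 members were higher and 2 lower at day 7 than at day 3, with a median of 0.70 (0.30 with 50 or more calgranulin UMIs per cell), 5 higher and 8 lower at day 14 than at day 7, and 1 higher and 1 lower at day 14 than at day 3. Egr1 was at 2282, 5277 and 1948 CPM at days 3, 7 and 14 and Fos at 1017, 3397 and 1522 CPM, transcription factors induced within minutes of a stimulus, enzymatic digestion of tissue included. Fosb, of the same family as Fos, was at 79.1, 175 and 313 CPM and so was highest at day 14, and Nr4a1, an orphan nuclear receptor, was at 458, 253 and 434 CPM and lowest at day 7. Zfp36, which destabilises cytokine mRNA, was at 2237, 4214 and 2044 CPM. Hspa1b, a heat shock protein, had 48, 89 and 20 UMIs, of which 41 at day 3 and 39 at day 7 lay in 1 cell each. In monocytes and macrophages 5 of 19 members were higher and 0 lower at day 7 than at day 3, with Egr1 at 190, 330 and 107 CPM. The part of tissue handling in the values at day 7 was not tested.

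Among the genes with the largest ratios at day 7 over day 3, 3 were in none of the lists. Gadd45b and Gadd45g, growth arrest genes, were at 1328, 3267 and 1404 CPM and at 124, 512 and 153 CPM at days 3, 7 and 14, and Il15, a cytokine that sustains CD8 T and NK cells, at 209, 642 and 210 CPM, 3.07-fold (2.08 to 4.61) higher at day 7 than at day 3. Among the lowest at day 7 against day 3 were Spp1, a member of the tumour-state list, Plac8, Dusp2 (486, 104 and 114 CPM), Malt1 (542, 130 and 142 CPM) and Lyz2 (1418, 480 and 931 CPM). Spp1, which encodes osteopontin, was at 3604, 156 and 960 CPM, but 363 of its 638 UMIs at day 3 lay in 1 cell. Plac8 had 520, 77.8 and 167 CPM, against 3916, 2886 and 2361 CPM in monocytes and macrophages, and Lyz2 reached 10077, 10668 and 7394 CPM there. The summed monocyte and macrophage markers in neutrophils (486, 104 and 263 CPM) were also lower at day 7 than at day 3, and their part in the result was not tested. At day 14, Nampt, the enzyme that salvages NAD, was at 167 CPM after 864 and 966 CPM at days 3 and 7, and Cited2 at 164 CPM after 452 and 733 CPM.

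Genes of the NADPH oxidase, which makes superoxide, were lowest at day 7 where they passed the rule. Of its 6 genes 0 were higher and 2 lower at day 7 than at day 3, 3 higher and 0 lower at day 14 than at day 7, and none passed the rule at day 14 over day 3. Ncf4, a cytosolic subunit, was at 220, 233 and 327 CPM at days 3, 7 and 14. Cybb, the catalytic subunit, had 29, 3 and 46 UMIs, of which 22 at day 3 and 21 at day 14 lay in 1 cell each. Without the 3 granule-rich cells 0 of 5 measured members were higher at day 14 than at day 7.

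Survival and death genes were mostly lower at day 14 than at day 3, and Mcl1 and Pim1 passed the rule in no pair of days. Of 18 measured members 1 was higher and 11 lower at day 14 than at day 3, with a median of -0.87, 0 of 15 higher and 5 lower at day 7 than at day 3, and 0 of 15 higher and 2 lower at day 14 than at day 7. Mcl1, the protein neutrophils depend on to stay alive, was at 3808, 4642 and 3718 CPM at days 3, 7 and 14 and Pim1, a survival kinase, at 5192, 4979 and 4813 CPM. Bcl2a1b, of the A1 family of survival factors, was at 1452, 687 and 665 CPM; its paralogs Bcl2a1a and Bcl2a1d are nearly identical, so their reads may be split between them. Fas, the death receptor, was at 181, 169 and 56.9 CPM and Casp8, the caspase it acts through, at 102, 110 and 21.3 CPM, both lowest at day 14. Among transcription factors, Cebpb was at 8734, 8168 and 9218 CPM and Spi1, which encodes PU.1, at 791, 564 and 892 CPM, and 1 of 16 measured factors was higher and 4 lower at day 14 than at day 3. Day 7 over day 3 gave 0 higher and 1 lower of 15 factors, and day 14 over day 7 gave 3 higher and 3 lower of 17.

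Cells of 1 library spread widely. Counted as UMIs per 10000 of the cell, the interferon-gamma list had medians of 121, 68.3 and 31.0 at days 3, 7 and 14, and its quartiles ran from 78.4 to 178 at day 3, from 44.9 to 108 at day 7 and from 20.6 to 58.9 at day 14. Ferritin RNA had medians of 311, 662 and 317, and the glycolysis and hypoxia list 77.5, 94.7 and 64.7. Ccl3 and Ccl4 together had medians of 57.6, 82.8 and 11.7, with quartiles from 10.4 to 266 at day 3, from 17.5 to 221 at day 7 and from 0 to 84.1 at day 14. A minority of cells thus carried most of these chemokine UMIs at day 14. The mature circulating list had medians of 81.9, 90.8 and 152.

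**Figure D3:**
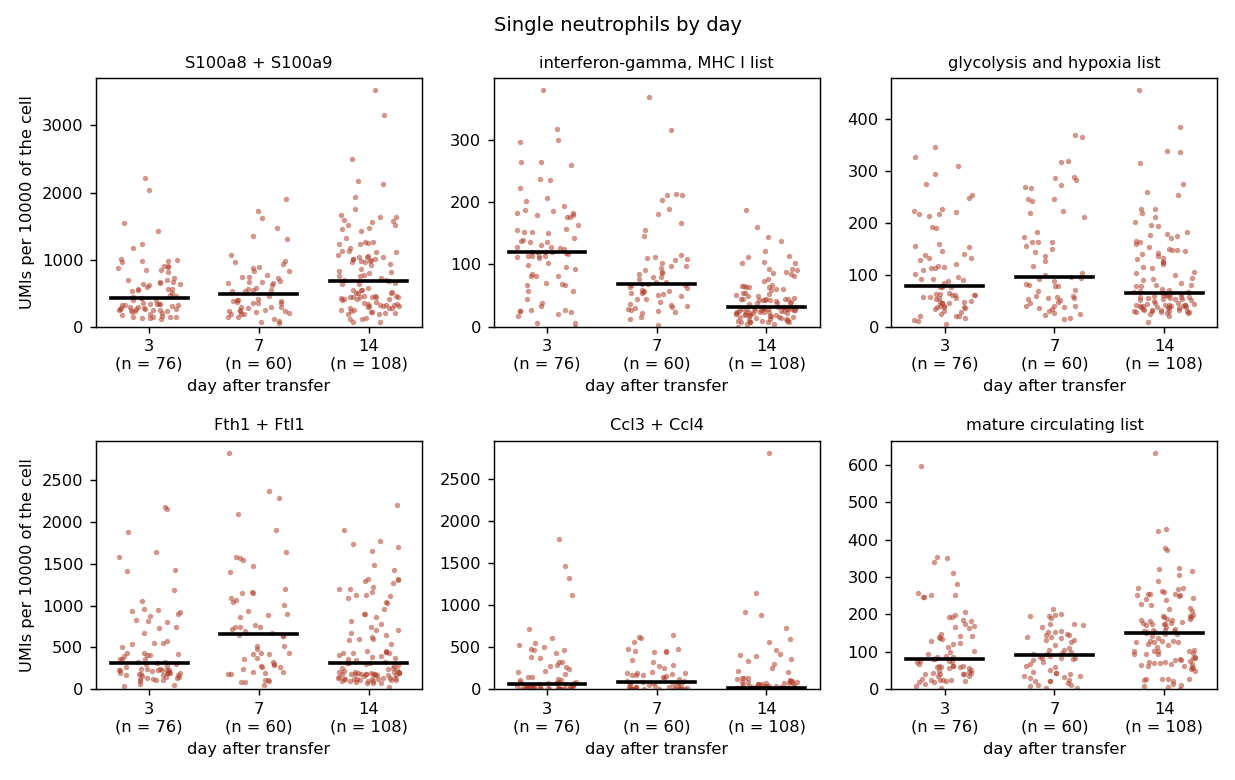
Each point is 1 neutrophil, with 6 measures (panels) in UMIs per 10000 UMIs of the cell (y axis) by day after transfer (x axis), spread sideways at random; bars are medians. The interferon-gamma list has medians of 121, 68.3 and 31.0 and ferritin of 311, 662 and 317 at days 3, 7 and 14, with wide overlap of cells between days.

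Several per-cell measures were related within each library. Across the cells of a day, the mature circulating list ran against ferritin RNA, with Spearman's rho of -0.41, -0.49 and -0.53 at days 3, 7 and 14 (n = 76, 60 and 108 cells), and against Ccl3 and Ccl4, with -0.44, -0.47 and -0.46. Ferritin ran with the glycolysis and hypoxia list, with 0.39, 0.72 and 0.53. The mature circulating list ran with the oxidase genes, with 0.53, 0.46 and 0.48, and the type I with the interferon-gamma list, with 0.66, 0.34 and 0.45. These are shares of the same UMIs of the same cells, so that a gene that takes many UMIs lowers all others, and cells of a library are not replicates; the values are a description.

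**Figure D4:**
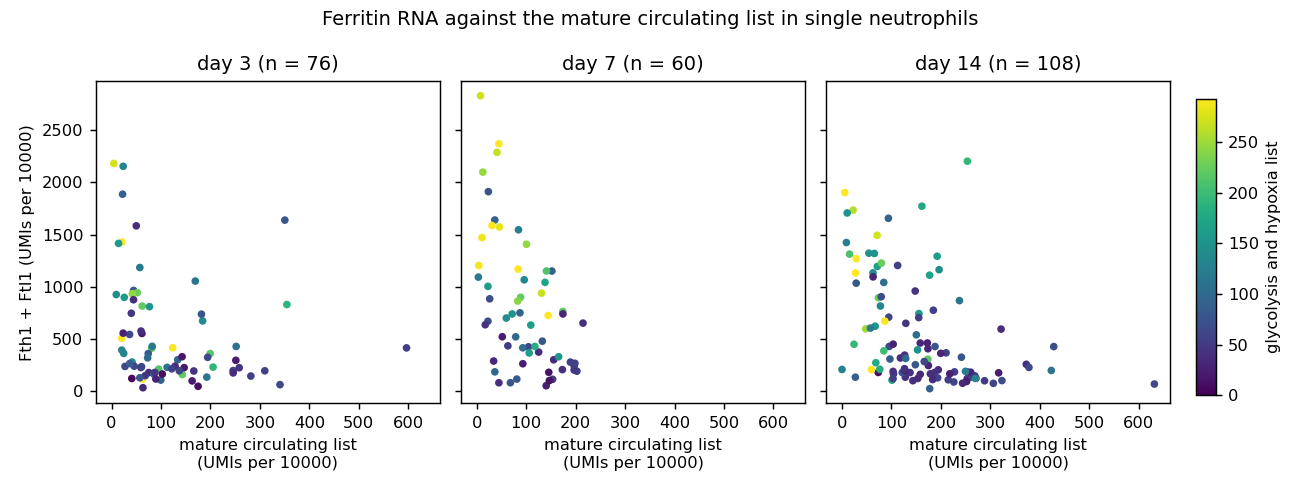
Ferritin RNA (Fth1 and Ftl1, y axis) against the mature circulating list (x axis), both in UMIs per 10000 of the cell, for 76, 60 and 108 neutrophils at days 3, 7 and 14, coloured by the glycolysis and hypoxia list. Cells high in ferritin are mostly low in the mature circulating list and often high in glycolysis, with rho between the axes of -0.41, -0.49 and -0.53.

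Against monocytes and macrophages of the same library the gate fixes much of the contrast, so the ratios describe the cells. A gene was counted where it passed the rule in the same direction in all 3 libraries, which held for 5.62% of 9691 genes as higher and 14% as lower in neutrophils. Beyond the gate genes, the highest included Retnlg, with log2 ratios of 9.11, 9.18 and 9.85 at days 3, 7 and 14, Stfa2l1 (8.73, 10.26 and 8.36), Cstdc4 (7.86, 9.26 and 7.55) and Lcn2 (7.22, 6.49 and 7.66), and also Hdc, the enzyme that makes histamine, Lrg1, Mirt1, Il1r2, the decoy receptor of interleukin-1, and Csf1, the growth factor of macrophages. Hdc was at 2333, 1867 and 2307 CPM in neutrophils and Csf1 at 972, 467 and 579 CPM. Lowest were genes of antigen presentation by MHC class II, with Cd74 at log2 ratios of -5.50, -8.12 and -6.60, beside H2-Ab1, H2-Eb1, H2-Aa and H2-DMb1, and Ccl7 and Crip1. C1qb, a partner of C1qa in complement C1q that the gate did not use, had no UMI in neutrophils, at least 35.7-fold, 24.1-fold and 85.5-fold lower at days 3, 7 and 14.

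By role, 14 of 19 measured interleukin-1, TNF and NF-kB genes were higher in neutrophils in all 3 libraries and 0 lower, with Acod1 at log2 ratios of 3.75, 4.39 and 4.75 at days 3, 7 and 14 and Il1b at 1.76, 1.78 and 2.09. Chemokines split, with Cxcl2 (3.48, 3.04 and 2.64), Ccl3 (4.57, 4.23 and 3.72), Ccl4 and Cxcl3 higher and 6 of 15, among them Ccl2, Ccl7 and Cxcl9, lower. Of 11 chemotactic receptors 8 were higher, among them Cxcr2, which the gate itself selects. Ccr2, the receptor that brings monocytes into tissue, was lower. In the type I interferon list 10 of 20 were higher and 2 lower, and in the interferon-gamma list 1 of 19, Irf1, was higher and 5 lower. Arg1 had log2 ratios of -4.62, -6.61 and -7.83, while its counterpart Arg2 was higher in all 3 libraries. Fcer1g, the shared signalling chain of Fc receptors, had ratios of 0.03, -0.02 and -0.07 and so was nearly level between the cell types.

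**Figure D5:**
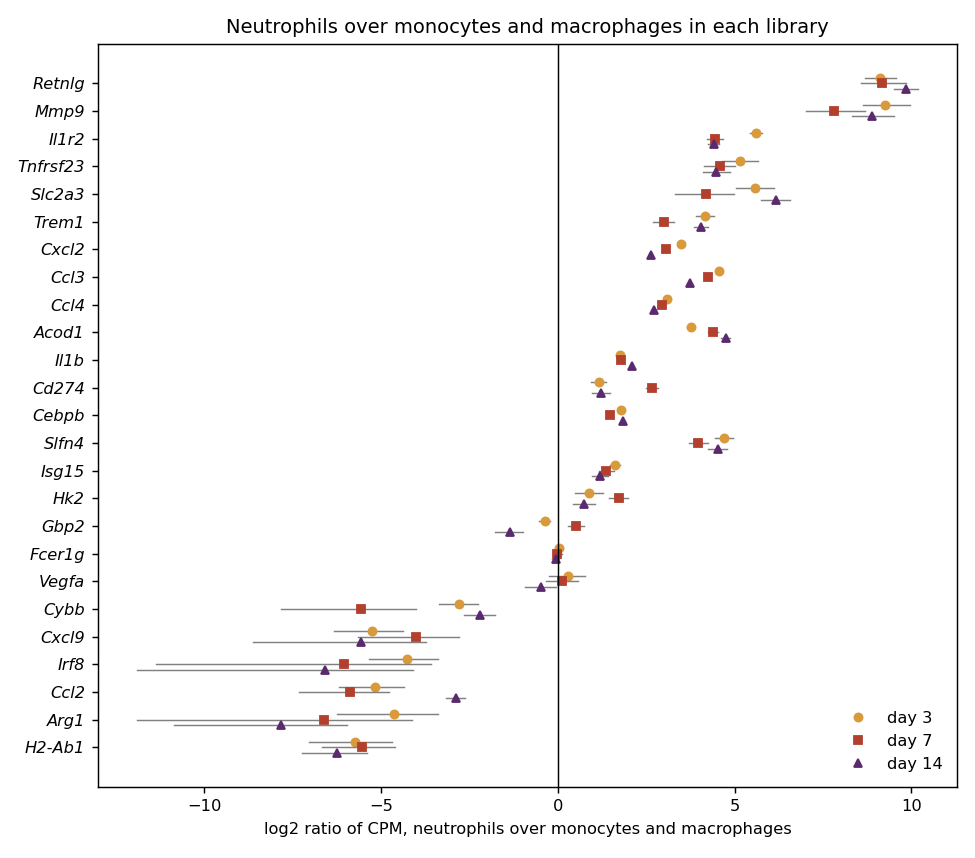
Log2 ratio of CPM in neutrophils over monocytes and macrophages (x axis) for 25 genes (rows) in the 3 libraries, with 95% intervals that cover counting error. Retnlg lies between 9.11 and 9.85, Fcer1g between -0.07 and 0.03 and Arg1 between -7.83 and -4.62.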

How the data were processed

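Per the labels' protocols, tumours were digested with collagenase, CD45+ cells of 3 mice were pooled for each of the 3 libraries, and 10x Genomics 3′ v3.1 libraries were made. The labels give both a cell sorter and magnetic beads for the isolation of CD45+ cells. The deposited values are whole-number UMI counts per gene and barcode, which the authors made with Cell Ranger 4.0.0 with build mm10 named beside it (per the submitters' processing notes). Which gene annotation was used is not given in the sources used here. Gene list, marker and gate choices were made with earlier results of these data known.

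Cells were gated on the counts, the UMIs of each class of cells were added up per library, and levels were given as CPM. Ratios have exact conditional intervals and levels exact Poisson intervals at 95%, which take UMIs as independent and so cover counting error only. A gene was measured with 20 or more UMIs over the libraries compared, and a count of 0 was set to 3 counts per library for a ratio. No test across days was made, since each day is 1 library, and no doublet caller was run and no doublets were removed. For the thinned shares of cells with Cd274, each cell was thinned to 1000 UMIs by its expected value. Other shares and numbers of cells with a UMI were not thinned, so depth differs between the cells compared. The genes named are the gate genes, up to 6 members per list and comparison by the interval bound nearest 0, and, beyond the lists, the 8 highest and 8 lowest per day comparison among genes with 100 or more UMIs and the 15 highest and 10 lowest against monocytes and macrophages, of which the text gives a part. List members named as level, at 0 or under these limits were chosen after their values were seen. Mx1, Clec7a and BC100530 were not analysed here. Some members of the lists are counted but not reported by name here.

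Alternatives changed the limits on UMIs, mitochondrial share and gate genes, the barcode rule, the scaling, the weight of cells and single cells left out. Promoters and starts come from RefSeq tables of GRCm38.p6, and 32158 of 32285 gene IDs of the files matched by identifier. Python 3.11.15 with numpy 2.4.6, scipy 1.17.1, pandas 2.3.3 and matplotlib 3.10.9 was used, and edgeR 4.0.16 in R 4.3.3 for TMM factors. The calculations were checked on simulated data.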

Additional observations from a re-analysis of the deposited data

Results flagged for a closer look

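Only members of the gene lists were searched, with the cell type markers left out. In 13 cases such a gene passed the rule of size in opposite directions in neutrophils and in monocytes and macrophages of the same libraries. Cd177 and Hmox1 each count for more than 1 comparison of days. The same count over all measured genes was not made, so the 13 have no background share beside them and are no result about the lists. The difference between the cell types was not tested. All values are log2 ratios of CPM between days.

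For day 7 over day 3, Cd274 had 0.84 in neutrophils and -0.68 in monocytes and macrophages, and Slpi, a protease inhibitor of neutrophil granules and epithelia, had -0.83 in neutrophils and 0.83 in monocytes and macrophages. For day 14 over day 7, Ccl6 had -0.62 in neutrophils and 0.84 in monocytes and macrophages. Hmox1, the haem-degrading enzyme, had -1.38 and 0.65 in these cell types for day 14 over day 7, and -0.70 and 0.87 for day 14 over day 3, where the neutrophil value was -0.04 without the cell of most Hmox1 UMIs in each library.

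Cd177, a neutrophil surface glycoprotein, had 2.68 in neutrophils and -1.47 in monocytes and macrophages for day 14 over day 7, and 3.46 and -1.17 for day 14 over day 3. Ifitm6 had 1.59 in neutrophils and -1.03 in monocytes and macrophages for day 14 over day 7, and without the 3 granule-rich cells the neutrophil value was 0.44. Cebpe, the transcription factor of granule genes, had 1.33 in neutrophils and -1.14 in monocytes and macrophages for day 14 over day 3. Without those 3 cells, Cd177 and Cebpe were under the UMI minimum.

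For day 14 over day 3, Pglyrp1, a granule protein that binds bacterial walls, had 0.94 in neutrophils and -0.81 in monocytes and macrophages. Prok2 had 2.67 in neutrophils and -5.09 in monocytes and macrophages, with its neutrophil UMIs in 4, 2 and 6 cells at days 3, 7 and 14. Il23a, a subunit of interleukin-23, had -1.49 in neutrophils and 0.62 in monocytes and macrophages. Spp1 had -1.91 in neutrophils and 1.38 in monocytes and macrophages, with 363 of 638 neutrophil UMIs at day 3 in 1 cell.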

How the results depend on the processing

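No paired analysis was possible because each day is 1 library. Each result was counted again under each alternative. Of these values, 816 of the main comparisons moved by less than their limit and 14 by more. The limit was 1.5-fold for counts of genes and the interval of the main value for ratios. For a list median it was an interval over the list members, which in the shortest lists runs from the lowest to the highest member. A median could hardly pass such a limit. List medians gave 692 of the 816 and 6 of the 14, so the tally says little on how stable they are. Of values of single genes 1029 did not pass their limit, 93 did and 1 reversed. The tally includes keeping shared barcodes, which added no neutrophil and so could not change neutrophil RNA. The share of neutrophils at day 14 over day 7 had a log2 ratio of 0.66, with 0.52 to 0.81 over alternatives, and day 7 over day 3 had -0.24, with -0.45 to 0.14. The interferon-gamma median at day 14 over day 7 ran from -1.97 to -1.16, and that of the mature circulating list from 0.68 to 1.15.

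Genes past the size rule numbered 467, 612 and 433 for day 7 over 3, 14 over 7 and 14 over 3. With each cell weighing alike they numbered 748, 982 and 878, but there the rule asked for 1.5-fold alone and no interval, so the counts are not alike. With at least 100 UMIs per gene, where fewer genes are measured, they numbered 157, 233 and 160. By 1.5-fold alone and with each cell weighing alike, 2026 genes were higher and 2093 lower in neutrophils than in monocytes and macrophages in all 3 libraries. The full rule with its interval gave 545 and 1358 on summed counts, so weight and rule both differ here. The type I interferon median at day 7 over day 3 (-0.05) was 0.12 with TMM and 0.094 with 50 or more calgranulin UMIs. At day 7 over day 3 the glycolysis and hypoxia median ran from 0.57 with each cell weighing alike to 1.10 with TMM, the tumour-state median from 0.32 to 0.80 and that of early and stress genes from 0.30 to 0.87. TMM put the median of all genes at 0.11 for day 7 over 3 and for day 14 over 3. At day 14 over day 7, the glycolysis and hypoxia median was -0.33 with 10 or more calgranulin UMIs and -0.31 with Fn1, Adgre1 and C1qa allowed, and the tumour-state median -0.47 with 10 or more calgranulin UMIs. Ccl2 at day 14 over day 3 was -0.90 with under 5% mitochondrial UMIs. Beyond these differences of rule and of genes measured, the cause of the shifts was not tested. After seeing the data, 3 alternatives were added, which leave out the granule-rich cells, ferritin, or the deepest neutrophil per library. Depth limits genes near 20 UMIs, most of all at day 7 with its 60 cells.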
